A study of Mus musculus with 6 samples.

Results

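The receptors for BAFF and CD40 ligand, the TRAF adaptors that bind their tails and the kinase NIK were examined in follicular B cells after 1 h of culture. The 9 genes were listed by name, and all 9 were among the 12431 genes of the count table. They are Tnfrsf13b (TACI), Tnfrsf13c (BAFF receptor), Cd40, Traf1, Traf2, Traf3, Traf5, Traf6 and Map3k14 (NIK). The cells were sorted from spleens of adult male mice as CD21/35- CD23+ B cells, and cultured in complete RPMI with serum and no added stimulus. The WT group held 3 libraries from Gpr174+/Y mice. The KO group held 3 libraries from Gpr174-/Y mice, in which a tdTomato reporter replaces the coding exon of Gpr174, the X-linked gene of a receptor for lysophosphatidylserine. KO mice carry this allele in all cells, not in B cells alone.

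BAFF and CD40 ligand are members of the TNF family that keep mature B cells alive and carry help from T cells. Their receptors have no kinase of their own and recruit TRAF proteins. In resting B cells TRAF3, with TRAF2 and the ubiquitin ligases cIAP1 and cIAP2, has NIK degraded. Engaged receptors draw this complex away, so NIK accumulates and the p100 precursor encoded by Nfkb2 is processed, which is the noncanonical NF-κB pathway. TRAF6 and TRAF2 also lead from CD40 to the canonical pathway and to MAP kinases. CD86 can be induced through CD40 as well as through cAMP, the second messenger made when GPR174 acts through Gαs. The comparison therefore asked whether transcripts of the CD40 and BAFF receptor machinery differed early in a culture in which no ligand for it was added.

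Total counts ranged from 8452460 to 10944833 reads per library, and 10514 genes passed the filter on low counts. Values are given as CPM, the reads of a gene scaled to a common library size with TMM factors. WT replicate 2 stood apart from the other libraries on the first principal component of the 500 most variable genes, with a score of 32.5 against -8.18 to -4.33. Gpr174 was at 136, 125 and 121 CPM in WT and at 99.8, 100.2 and 99.8 CPM in KO. Every WT library was thus above every KO library, but KO kept most of the signal. Where the counted 3′ tags lie relative to the replaced exon was not examined, so Gpr174 gave no clear check of the labels. B cell markers were abundant. The summed level of the 6 counted of 7 was 3529 to 3694 CPM in WT and 4100 to 4121 CPM in KO, and Cd79b, a chain of the B cell receptor, was called lower in WT. Fcer2a, which encodes CD23, averaged 430 CPM in WT against 519 CPM in KO, and Cr2, which encodes CD21/35, was at 1043 and 1057 CPM although the sort label reads CD21/35-. The summed levels in WT and KO were 2689 to 2839 and 2503 to 2745 CPM for 4 of 5 follicular markers, and 2005 to 2137 and 1930 to 2220 CPM for 7 of 7 marginal zone markers. Ccr7, a homing receptor among the follicular markers, was called higher in WT, and the other 3 summed to 1433 to 1582 CPM in WT and 1509 to 1671 CPM in KO. The sums were 44.6 to 64.0 and 36.2 to 54.2 CPM for 7 of 8 T cell markers. Most of this was Lck, which alone averaged 42.5 CPM in WT and 37.4 CPM in KO. The sums were 78.9 to 101 and 72.3 to 77.7 CPM for 9 of 9 myeloid markers. For 4 of 5 NK cell markers they were 7.27 to 13.2 and 5.85 to 5.996 CPM. For 5 of 5 plasma cell markers they were 449 to 528 and 560 to 623 CPM, but without Irf4, which was called lower in WT, the other 4 summed to 118 to 127 CPM in WT and 103 to 119 CPM in KO. For 3 of 6 erythroid markers they were 2679 to 4714 and 3010 to 7569 CPM. The part of these cells in the results below was not tested. In bulk RNA, fewer cells of a type and less RNA per cell cannot be told apart.

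No member passed the test for a difference between WT and KO B cells. Of the 9 genes, 8 passed the filter, with 165 to 3507 reads per library, and 0 of these 8 had an edgeR adjusted p under 0.05. In the background of all genes tested, 1.82% were called, 1.3% higher in WT and 0.514% lower. At an unadjusted p under 0.05 there was 1 member, Cd40, where 11.9% of all genes reached that level, and DESeq2 also called 0 members. The fitted log2 fold changes, written log2(WT/KO), ran from -0.30 for Tnfrsf13b to 0.23 for Traf1. The median of the 8 was -0.10, with 4 above and 4 below 0, beside a median of -0.003 over all genes tested. Each fold change has a 95% interval for that gene alone, not widened for the number of genes, and 7 of the 8 intervals included 0. The bounds of all 8 lay between -0.66 and 0.53, so a log2 difference of 1 in either direction was outside every interval.

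**Figure D1:**
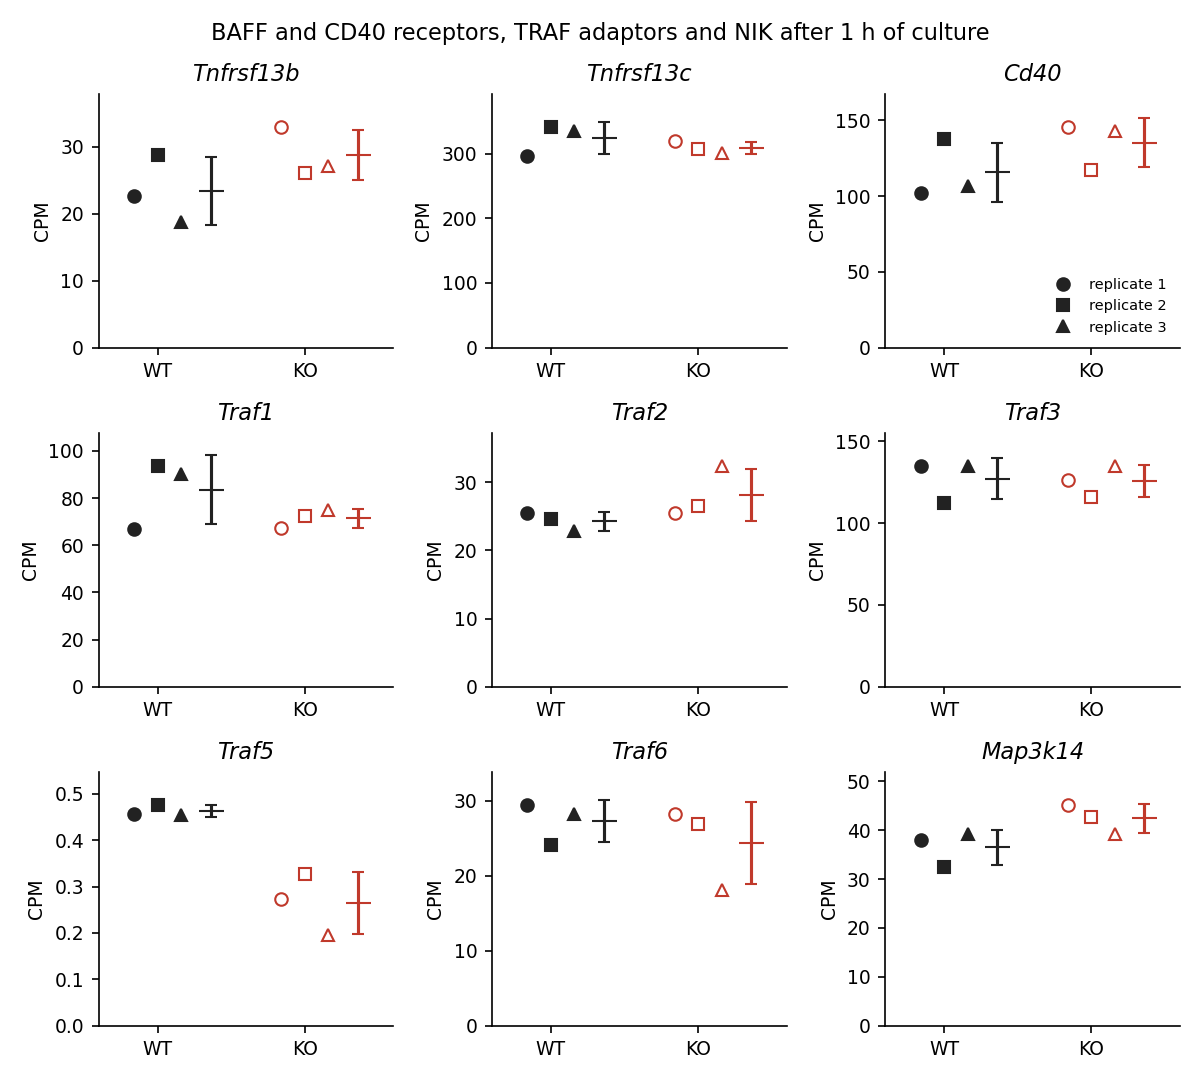
CPM of each of the 9 genes (vertical axes, each from 0) in the 3 WT libraries (filled black) and the 3 KO libraries (open red). Symbols mark the replicate number, and the bars to their right are the mean and SD of each group. The groups overlap in all panels except Traf5, which rests on 2 to 5 reads per library, and Map3k14, where the nearest WT and KO libraries lie at 39.2 and 39.3 CPM.

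Among the receptors, Tnfrsf13c encodes the BAFF receptor, the main survival receptor of mature B cells (chromosome 15, 82221743 to 82224369, mm10, minus strand). Its level was 296, 342 and 335 CPM in WT replicates 1 to 3, and 319, 307 and 301 CPM in KO replicates 1 to 3. The lowest and the highest library were both WT, and the KO values lay between them. Its log2(WT/KO) was 0.07 (SE 0.07, edgeR adjusted p 0.786). The interval, -0.08 to 0.22, places the WT level between 0.945 and 1.16 times that of KO, which is the narrowest range among the members.

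Tnfrsf13b encodes TACI, which binds BAFF and APRIL (chromosome 11, 61126755 to 61149372, plus strand). It was counted at 22.7, 28.9 and 18.7 CPM in WT and at 33.0, 26.2 and 27.1 CPM in KO. WT averaged 23.4 CPM ± 5.10 and KO 28.8 CPM ± 3.73 (SD, n = 3 each). WT replicate 2 was above 2 of the 3 KO libraries, and the groups overlapped. At -0.30 (SE 0.18, edgeR adjusted p 0.539), its log2(WT/KO) was the largest in size among the members. Without WT replicate 2 it was -0.47 (edgeR adjusted p 0.266).

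Cd40 encodes the receptor through which helper T cells activate B cells (chromosome 2, 165055627 to 165072948, plus strand). Its level was 102, 138 and 107 CPM in WT and 146, 117 and 143 CPM in KO. WT replicate 2 lay above KO replicate 2, and the other WT libraries lay below all KO libraries. WT held 0.853 times the KO level, a log2(WT/KO) of -0.23 (SE 0.11), with an unadjusted edgeR p of 0.0491 and an adjusted p of 0.420. Leaving out WT replicate 2 moved log2(WT/KO) to -0.38 and its edgeR adjusted p to 0.0534, and leaving out WT replicate 1 moved them to -0.15 and 0.688. None of the 12 alternatives called Cd40. The summed B cell markers were also lower in WT, in all 3 libraries.

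The adaptors of the complex that holds NIK in check were next examined. Traf3 is the subunit that binds NIK (chromosome 12, 111166370 to 111267153, plus strand). It was at 135, 112 and 135 CPM in WT and at 126, 116 and 135 CPM in KO. The WT and KO libraries covered the same range, and log2(WT/KO), at 0.02 (SE 0.09, edgeR adjusted p 0.965), was the smallest in size of the 8. Its interval of -0.18 to 0.21 holds the WT level between 0.885 and 1.16 times that of KO. Traf2 brings cIAP1 and cIAP2 to the complex (chromosome 2, 25517982 to 25546940, minus strand). It was at 25.5, 24.6 and 22.8 CPM in WT and at 25.5, 26.5 and 32.5 CPM in KO, with a single KO library, replicate 3, clearly above the others. Its log2(WT/KO) was -0.21 (SE 0.16, edgeR adjusted p 0.681), and -0.10 without KO replicate 3.

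Map3k14 encodes NIK, the kinase that this complex keeps low at the protein level (chromosome 11, 103219762 to 103267472, minus strand). It was the tested member whose groups did not overlap, where 16.7% of all genes tested did not overlap. The WT libraries were at 38.0, 32.4 and 39.2 CPM and the KO libraries at 45.2, 42.7 and 39.3 CPM, so that replicate 3 of each group lay side by side. WT averaged 36.5 CPM ± 3.59 and KO 42.4 CPM ± 2.99 (SD, n = 3 each). This is a log2(WT/KO) of -0.21 (SE 0.13, edgeR adjusted p 0.576). NIK is governed mainly by degradation, which RNA counts do not measure.

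Traf1, Traf6 and Traf5 completed the adaptors. Traf1 lacks the RING domain of its relatives, pairs with TRAF2 and is itself a target of NF-κB (chromosome 2, 34941750 to 34961772, minus strand). It was at 67.0, 93.7 and 90.0 CPM in WT and at 67.1, 72.2 and 74.9 CPM in KO. WT replicates 2 and 3 lay above all KO libraries, and WT replicate 1 lay below them. With all libraries log2(WT/KO) was 0.23 (SE 0.12, edgeR adjusted p 0.460), and without WT replicate 1 it was 0.37 (edgeR adjusted p 0.119).

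Traf6 encodes the ubiquitin ligase that CD40 shares with Toll-like receptors (chromosome 2, 101678429 to 101701669, plus strand). Its level was 29.5, 24.1 and 28.3 CPM in WT and 28.2, 26.8 and 18.0 CPM in KO. KO replicate 3 was the lowest library, and the others overlapped. Its log2(WT/KO) was 0.16 (SE 0.18, edgeR adjusted p 0.789), and -0.012 without KO replicate 3, so the direction rested on that library.

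Traf5 encodes an adaptor closely related to TRAF2 and TRAF3 (chromosome 1, 191997205 to 192092559, minus strand). It was barely counted, with 5, 4 and 4 reads in WT and 3, 3 and 2 reads in KO, and it did not pass the filter. The groups do not overlap, but they differ by single reads. The 13 WT reads and 8 KO reads give a ratio of 1.76 with an exact 95% interval of 0.675 to 4.89, which covers counting error only. A difference in Traf5 was not detectable at this depth. With no filter on low counts its edgeR adjusted p was 0.906. An antisense gene, Gm26879, and 2 genes on the same strand overlap Traf5, and strand use in counting was not stated.

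**Figure D2:**
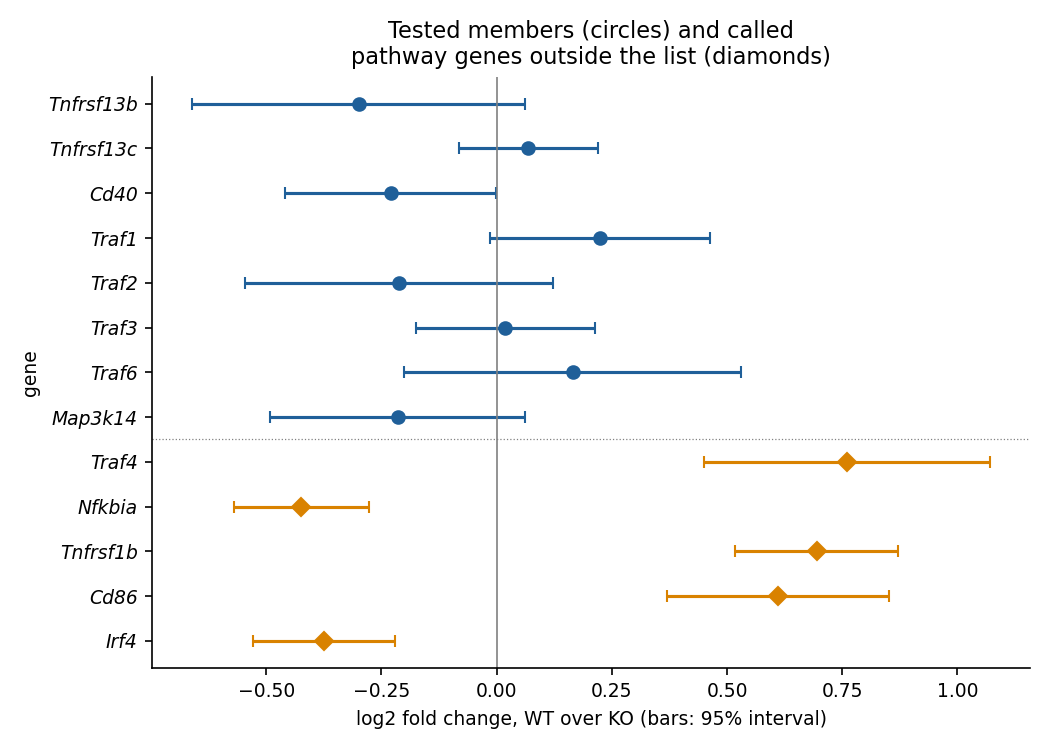
Log2 fold change of WT over KO with its 95% interval (horizontal axis) for the 8 tested members (blue circles) and for the 5 pathway genes outside the list that were called (orange diamonds). The members lie between -0.30 and 0.23, and the orange genes lie from -0.42 for Nfkbia to 0.76 for Traf4 with intervals that leave out 0.

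The members did not move as a block across libraries. WT replicate 2 was the highest WT library for Tnfrsf13b, Tnfrsf13c, Cd40 and Traf1 and the lowest for Traf3, Traf6 and Map3k14, so it was at an end of the WT range for 7 of the 8. Over all genes tested it was at an end in 72.2%. KO replicate 1 was likewise at an end of the KO range for 7 of the 8, where 65.0% of all genes tested had it there. It was the highest KO library for all 3 receptors. Spread within a group was widest for Traf6 in KO, at 22.7% of the mean (SD over mean), and for Tnfrsf13b in WT, at 21.8%. It was narrowest for Tnfrsf13c in KO, at 3.05%, among the tested members.

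**Figure D3:**
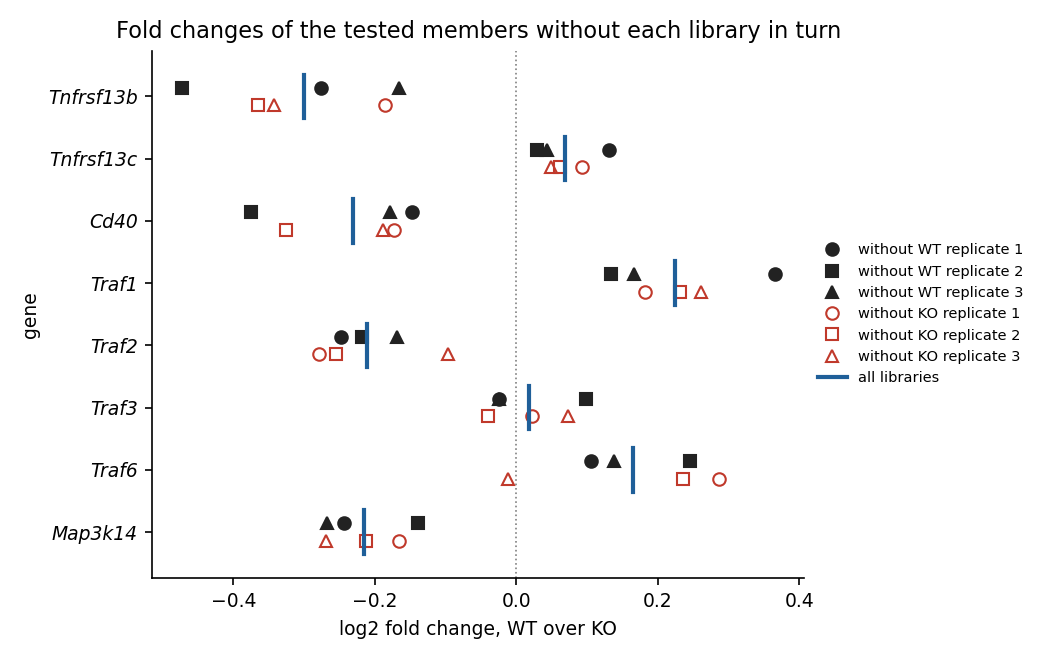
Log2 fold change of WT over KO (horizontal axis) of each tested member with all libraries (blue line) and with each WT library (black) or KO library (open red) left out. Tnfrsf13b, Cd40, Traf2 and Map3k14 stay below 0, Tnfrsf13c and Traf1 stay above 0, and Traf3 and Traf6 cross it.

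Promoters of the members were read for the letters that CREB, the transcription factor acted on by PKA, binds. RefSeq promoters (GRCm38.p6, 250 bases before to 50 bases after the start of the gene) were matched for 8 of the 9, and Cd40 had no entry. The full cAMP response element TGACGTCA was in 0 of the 8, in 1.79% of all 32851 promoters of that length and in 3.28% of the 9701 of tested genes. The short element TGACG, searched on both strands and contained in the full one, was in 2 of the 8, Traf2 and Traf5, and in 20.8% of all promoters and 32.2% of those of tested genes. The NF-κB consensus site, searched on both strands, was in 1 of the 8, Traf3, and in 4.51% of all promoters and 5.22% of those of tested genes. Of the pathway genes that were called, described below, Nfkbia held the NF-κB site, Traf4, Tnfrsf1b and Irf4 held none of these motifs, and Cd86 had no entry. The matches are shown with the motif in capitals, 5′ to 3′ on the strand of the gene, as the places where these letters occur. They lie at chr2:25547162-25547188 and chr2:25546922-25546948 for Traf2, at chr1:192092603-192092629 for Traf5 and at chr12:55492658-55492685 for Nfkbia, all on the minus strand, and at chr12:111166351-111166378 on the plus strand for Traf3.
Traf2 upstream match: ctgcaagtgacTGACGtccacgaagag
Traf2 match beside the start: gtgcgtctgtcCGTCAgacggggcggg
Traf5 match: cacacccccatCGTCAgccccgcccct
Traf3 match: gcggcccgcGGGGATTTCCagcgcgcga
Nfkbia match: gactggcttGGAAATTCCCcgcgcctga

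Other genes of the pathway were taken from 5 lists, which held 68 distinct genes beside the member Traf1, and 7 of the genes stood in 2 lists. Of the 68, 56 were tested and 5 were called (8.93%, beside 1.82% of all genes tested), 3 higher in WT and 2 lower (beside 1.3% and 0.514%). The genes higher in WT were Traf4, Tnfrsf1b and Cd86, and those lower in WT were Nfkbia and Irf4. Cd86 is a gene the study was built around, so its call is no separate evidence about the list. The lists were chosen with earlier results of these data known, so the share called is no evidence about the pathway.

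**Figure D4:**
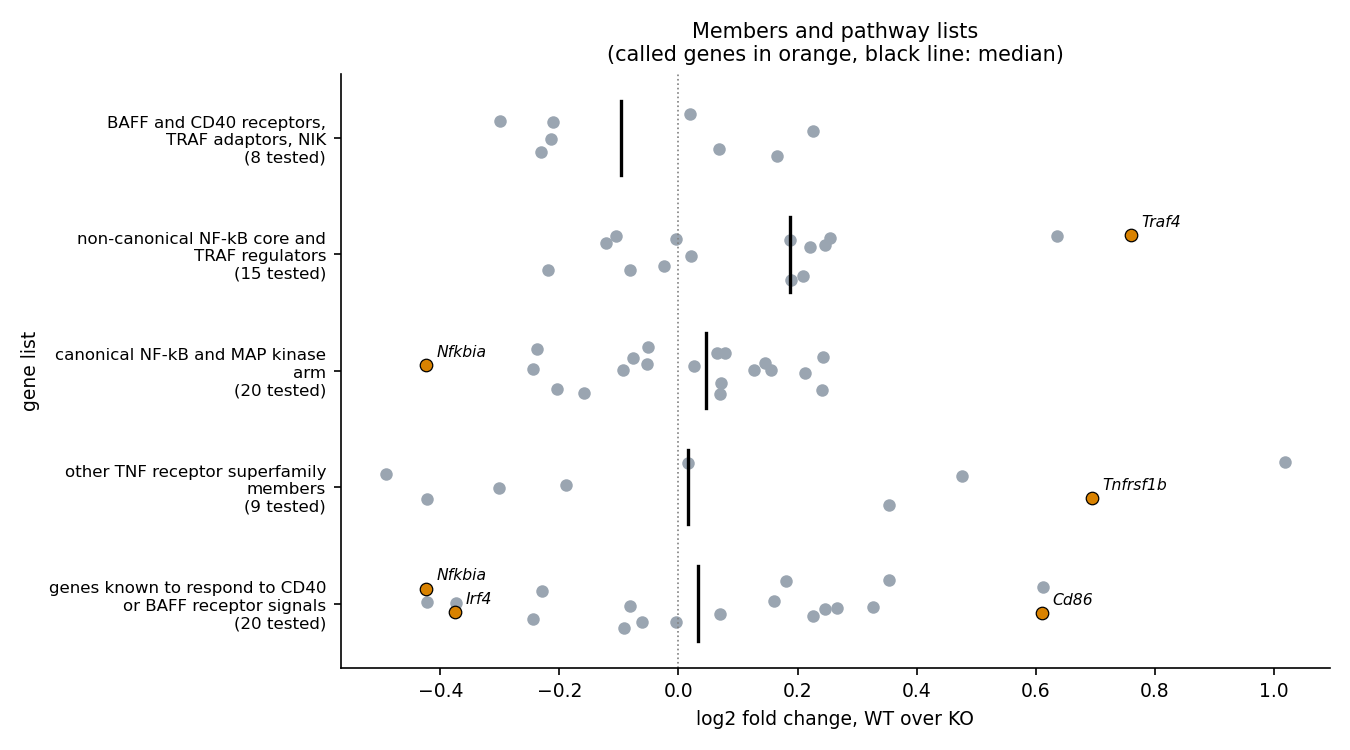
Log2 fold change of WT over KO (horizontal axis) of every tested gene in the member list and in the 4 pathway lists that had tested genes. Called genes are orange and named, black lines are medians, and Traf1 is drawn both as a member and as a response gene. The members hold no called gene, and each of the other lists holds 1 to 3. Nfkbia is drawn in both the canonical list and the response list.

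The list of noncanonical NF-κB and TRAF regulators had 15 genes, all tested. Of these, 1 was called higher in WT and 0 lower, with a median log2 fold change of 0.19. The called gene was Traf4, a TRAF family gene outside the receptor adaptors listed above (chromosome 11, 78158499 to 78165589, minus strand). It was at 38.2, 42.3 and 38.4 CPM in WT and at 23.3, 26.6 and 20.4 CPM in KO. Every WT library was above every KO library. WT held 1.69 times the KO level, a log2(WT/KO) of 0.76 (SE 0.15, edgeR adjusted p 0.00412). Without KO replicate 3 the adjusted p was 0.0569 and Traf4 was no longer called. The interval of 0.45 to 1.07 can be set beside those of Traf1, -0.01 to 0.46, and Traf2, -0.54 to 0.12, but differences between genes were not tested. Birc3, which encodes cIAP2, was at a log2(WT/KO) of 0.25 (edgeR adjusted p 0.192), and Peli1, a ubiquitin ligase, at -0.02 (0.934).

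The list of other TNF receptors had 14 genes, of which 9 were tested, 1 was called higher in WT and 0 lower, with a median of 0.02. The called gene was Tnfrsf1b, which encodes TNFR2, a receptor that like CD40 recruits TRAF2 (chromosome 4, 145213463 to 145246870, minus strand). Its level was 188, 207 and 228 CPM in WT and 127, 134 and 124 CPM in KO. The lowest WT library was well above the highest KO library. WT held 1.62 times the KO level, a log2(WT/KO) of 0.69 (SE 0.09, edgeR adjusted p 6.03e-06), and the gene was called in all 12 alternatives. The summed myeloid and NK cell markers were also higher in each WT library than in any KO library, although the sums overlapped once Csf1r, Fcer1g or Tyrobp (myeloid) or Gzma (NK) was left out, and their part in this result was not tested. Tnfrsf18, which encodes GITR, was at a log2(WT/KO) of 0.02 (edgeR adjusted p 0.989), and Tnfrsf26 at -0.19 (0.827).

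In the canonical NF-κB and MAP kinase list, 20 genes were tested, 0 were called higher in WT and 1 lower, with a median of 0.05. The called gene was Nfkbia, which encodes IκBα, the inhibitor that retains NF-κB in the cytoplasm (chromosome 12, 55489410 to 55492647, minus strand). It was at 2029, 2529 and 2166 CPM in WT and at 3207, 2900 and 2913 CPM in KO, with no overlap. Its log2(WT/KO) was -0.42 (SE 0.07, edgeR adjusted p 0.000805), and all 12 alternatives called it. Rel, which encodes c-Rel, was at a log2(WT/KO) of 0.24 (edgeR adjusted p 0.0590), and DESeq2 called it (0.0126). Map3k1, which encodes a MAP kinase kinase kinase, was at 0.08 (edgeR adjusted p 0.707).

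Genes known to respond to CD40 or BAFF receptor signals numbered 23 with Traf1, and 20 were tested. Of these, 1 was called higher in WT, Cd86, and 2 lower, Irf4 and Nfkbia, beside 1.3% and 0.514% of all genes tested. Nfkbia is the gene already described in the canonical list, so it is not a further call. The median log2(WT/KO) of the 19 that are no members was -0.0044, with 9 genes above and 10 below 0. Cd86, the costimulatory ligand, was at 66.1, 78.0 and 68.5 CPM in WT and at 42.6, 45.1 and 51.4 CPM in KO (log2(WT/KO) 0.61, SE 0.12, edgeR adjusted p 0.00289). Irf4, a transcription factor of B cell activation that also stands among the plasma cell markers, was at 331, 402 and 388 CPM in WT and at 456, 489 and 507 CPM in KO. It was at a log2(WT/KO) of -0.38 (SE 0.07, edgeR adjusted p 0.00430), and was not called without WT replicate 1 (0.0548) or without KO replicate 3 (0.0696). Cd83, an activation marker, was at -0.06 (edgeR adjusted p 0.789) and Mcl1, a survival factor of the BCL2 family, at -0.23 (0.0888), and DESeq2 called Mcl1 (0.0459).

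Of the ligands Tnfsf13b, Tnfsf13 and Cd40lg and the remaining receptor of the system, Tnfrsf17 (BCMA), 0 were tested. The table held Tnfrsf17, a receptor of plasma cells, at 0, 5 and 5 reads in WT and at 0, 2 and 0 reads in KO. The ligands had no row matched by name or by a single RefSeq synonym, so they were not analysed.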

How the data were processed

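RNA was measured in 3 WT and 3 KO libraries of sorted follicular B cells, grouped by title. The authors used a 3′ tag kit (QuantSeq), aligned the single-end reads to mm10 by STAR and obtained counts per gene from HTSeq. Versions, annotation and strand setting are not given in the sources used here. The deposited values are raw counts, with a smallest total of 10 per gene, and 0 sample columns were unused. The methods of the study mention no molecular identifiers.

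In edgeR 4.0.16 (R 4.3.3), low-count genes were removed by filterByExpr, libraries were scaled by TMM, and groups were compared with the two-sided quasi-likelihood F test (robust dispersions, Benjamini-Hochberg adjusted p under 0.05 over 10514 genes). The SE is the absolute log2 fold change over the square root of F. Chi-square per degree of freedom within groups was 6.89 to 10.9, so no library was a copy. CPM was not divided by gene length. It was summed over marker genes and used to pick named genes, and is otherwise not compared between genes. Scripts were tested on simulated data.

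Alternatives were DESeq2 (version 1.42.0), RLE factors, library totals alone, no filter, a mean of at least 50 counts, the replicate number as a block and omission of each library. Members and lists were chosen with earlier results of these data known. Named pathway genes were those called and, per list, the 2 others with the highest mean CPM. List genes were also matched by RefSeq synonyms. Positions are from GENCODE M21 (mm10).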

Additional observations from a re-analysis of the deposited data

How the results depend on the processing

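None of the 8 tested members was called in any of the 96 alternative fits (12 per member), where the lowest adjusted p was 0.0534, for Cd40 without WT replicate 2. Direction was kept in 92 of the 96. It turned in 3 fits for Traf3, whose log2 fold change ranged from -0.040 to 0.10 without 1 library, and in 1 for Traf6 (-0.012 to 0.29). Without 1 library, the log2 fold change ranged from -0.47 to -0.17 for Tnfrsf13b, -0.38 to -0.15 for Cd40, 0.13 to 0.37 for Traf1, 0.03 to 0.13 for Tnfrsf13c, -0.28 to -0.10 for Traf2 and -0.27 to -0.14 for Map3k14. The number of genes called, 191 in all, was 91 to 183 in these fits (91 without KO replicate 3 and 113 without KO replicate 2), which hold fewer libraries, and 252 under DESeq2. The noncanonical list had 0 to 1 called gene, losing Traf4, and the list of response genes 2 to 4. The canonical list had 2 called genes in place of 1 under DESeq2, a mean of at least 50 counts and the replicate block, each time by adding Rel, and the cause was not tested. Replicate numbers share no stated origin. Deviations of same-numbered libraries correlated at 0.014 to 0.050, each library best with its own number. The replicate block called 281 genes and 0 members. Tnfrsf13b, Traf2 and Traf6 rest on the fewest reads among tested members and have the widest intervals. Median shifts between scalings were under 0.01 on the log2 scale.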

Other observations

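The genes of the 2 cellular inhibitors of apoptosis, the ubiquitin ligases that TRAF2 brings to NIK, were chosen here after their values were seen, as were Traf3ip3 and Otud7b. Birc2 (cIAP1) and Birc3 (cIAP2) each had all WT libraries above all KO libraries, at a log2(WT/KO) of 0.26 (SE 0.09) and 0.25 (SE 0.09), while neither was called (edgeR adjusted p 0.199 and 0.192). Without WT replicate 2, Birc3 was at 0.12 (edgeR adjusted p 0.637). Traf3ip3, which encodes a protein that binds TRAF3, also had no overlap, at a log2(WT/KO) of 0.64 (SE 0.22, edgeR adjusted p 0.198), but at 0.25 without WT replicate 2 (edgeR adjusted p 0.724). Otud7b, which encodes a deubiquitinase that acts on TRAF3, had all WT libraries below all KO libraries, at -0.22 (SE 0.10, edgeR adjusted p 0.368), and at -0.11 without WT replicate 2. In the noncanonical list 5 of 15 genes, these 4 and Traf4, had no overlap between WT and KO, beside 16.7% of all genes tested. Of the other lists, the canonical one had 6 of 20 such tested genes, the response genes 5 of 20 and the other TNF receptors 1 of 9. The response genes count Birc3 and Nfkbia again, which stand in the noncanonical and the canonical list. The lists were chosen with earlier results of these data known, so these shares are no evidence about the pathway.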
